A study of Mus musculus with 16 samples.

Results

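The genes of fatty acid oxidation and ketone body formation were examined in sorted epithelium of the mouse distal colon. The set held 34 genes of the 21442 counted, chosen by name for their roles in binding fatty acids, activating them, carrying them into mitochondria, oxidising them, handling ketone bodies and controlling these steps. All 34 had an entry in the counts, lay on 15 chromosomes, and 32 passed the filter on low counts; Fabp1 and Cd36 did not. RNA sequencing covered 4 groups of 4 libraries each, from mice 6 to 8 weeks old. SpdefKO_GC were mCherry-positive goblet cells of Spdef -/- RedMUC298trTg mice, and WT_GC were the same fraction of RedMUC298trTg mice. SpdefKO_EC and WT_EC were the mCherry-negative remaining epithelial cells of those same genotypes. Every group therefore carried the RedMUC298trTg reporter, in which mCherry marks goblet cells, whose secretion forms the mucus layer. The sources used here do not give the promoter that drives the transgene. Spdef, the gene named by the knockout, encodes a transcription factor of secretory cell maturation.

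Fatty acids are bound in the cytosol, joined to coenzyme A, and carried into mitochondria through the carnitine shuttle. There a repeated cycle of dehydrogenation, hydration, a further dehydrogenation and thiolysis shortens them to acetyl-CoA, passing electrons on through the electron transfer flavoproteins, while peroxisomes run a parallel pathway. Absorptive colonocytes are known for using butyrate, a short-chain fatty acid made by gut bacteria, as their main fuel and for forming ketone bodies from it, and the nuclear receptors PPARalpha and PPARgamma switch on many of these genes.

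Promoter sequences are shown for 4 members, because PPAR receptors are known to bind a direct repeat of AGGTCA separated by 1 base, and because the Hadha and Hadhb genes are transcribed away from a common stretch of DNA. The RefSeq table (GRCm38.p6) held windows of 250 bases before and 50 bases after the start site for 31 of the 34 members; Acaa2, Acat1 and Decr1 were not among them. Each sequence reads 5′ to 3′ on the strand of its gene. In Cpt1a, Plin2 and Fabp1 the capitals mark TGACCT, which is AGGTCA read on the opposite strand, and in Hadhb they mark the 50 bases after the start site.
Cpt1a, chr19:3323051-3323350, plus strand: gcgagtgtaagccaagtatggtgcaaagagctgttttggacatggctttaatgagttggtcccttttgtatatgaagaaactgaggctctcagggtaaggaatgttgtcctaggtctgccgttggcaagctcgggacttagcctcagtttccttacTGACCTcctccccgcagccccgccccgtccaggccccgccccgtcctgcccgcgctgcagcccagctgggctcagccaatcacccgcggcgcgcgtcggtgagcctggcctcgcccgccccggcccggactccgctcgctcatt
Plin2, chr4:86670010-86670309, minus strand: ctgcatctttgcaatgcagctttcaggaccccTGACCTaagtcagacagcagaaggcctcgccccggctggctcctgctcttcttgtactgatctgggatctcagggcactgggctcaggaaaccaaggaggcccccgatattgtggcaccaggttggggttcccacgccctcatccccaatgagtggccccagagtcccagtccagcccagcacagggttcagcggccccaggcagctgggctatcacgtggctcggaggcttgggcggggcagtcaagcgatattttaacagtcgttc
Fabp1, chr6:71199629-71199928, plus strand: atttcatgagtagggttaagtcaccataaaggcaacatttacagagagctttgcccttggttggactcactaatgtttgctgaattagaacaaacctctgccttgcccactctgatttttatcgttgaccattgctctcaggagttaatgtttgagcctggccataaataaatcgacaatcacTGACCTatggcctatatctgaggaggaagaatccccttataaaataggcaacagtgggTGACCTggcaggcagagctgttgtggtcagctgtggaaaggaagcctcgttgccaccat
Hadhb, chr5:30155003-30155302, plus strand: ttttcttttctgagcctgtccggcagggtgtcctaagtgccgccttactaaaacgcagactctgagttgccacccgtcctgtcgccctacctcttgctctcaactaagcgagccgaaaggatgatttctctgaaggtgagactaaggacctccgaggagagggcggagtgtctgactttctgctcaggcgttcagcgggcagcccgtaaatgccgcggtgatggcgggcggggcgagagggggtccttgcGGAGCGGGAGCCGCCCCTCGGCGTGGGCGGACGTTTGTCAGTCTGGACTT

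On either strand, AGGTCA lay in the windows of 8 of the 31 members (25.8%), against 16.3% of 15208 genes. The members were Acadm, Acadvl, Cd36, Cpt1a, Echs1, Fabp1, Plin2 and Pparg. The full repeat AGGTCANAGGTCA was in none of the 31 and in 0.046% of all genes. A looser form that contains it, AGGNCANAGGNCA, was in 1 member (3.23%), against 0.441% of all genes. That member was Fabp1, where TGACCTATGGCCT begins 67 bases before the start site. The ETS-type core CCGGAT was in 3 members (9.68%), Acsl5, Bdh1 and Hadh, against 8.69% of all genes. These matches describe letters in the windows only. The start sites of Hadha and Hadhb in that table, on the minus and plus strands of chromosome 5, were 272 bases apart.

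Libraries held 10085637–17111987 gene counts. Muc2, the main mucin of goblet cells, averaged 13009 CPM in SpdefKO_GC and 12483 CPM in WT_GC, against 26.7 CPM in SpdefKO_EC and 47.4 CPM in WT_EC (CPM, the gene's share of all gene counts, scaled to parts per mega-count). Slc26a3, the chloride exchanger of absorptive colonocytes, averaged 78.9 CPM in SpdefKO_GC and 56.7 CPM in WT_GC, against 1541 CPM in SpdefKO_EC and 2025 CPM in WT_EC. Summed over 12 absorptive colonocyte markers, goblet cell libraries held 1082–1316 CPM in SpdefKO and 657–793 CPM in WT, while EC libraries held 8820–10813 CPM in SpdefKO and 9855–10776 CPM in WT. In GC this sum was 11.1–13.5% of the EC mean in SpdefKO and 6.30–7.61% in WT. Spdef itself averaged 385 ± 69.6 CPM in SpdefKO_GC and 306 ± 19.03 CPM in WT_GC (SD, n = 4 each), and 2.04 ± 0.926 CPM in SpdefKO_EC and 2.65 ± 0.848 CPM in WT_EC. It did not pass the test in GC (log2 0.33 ± 0.14 SE, adjusted p = 0.116) or in EC (log2 -0.28 ± 0.28 SE, adjusted p = 0.559). The Spdef count thus was not lower in libraries labelled SpdefKO_GC. The sources used here do not give the extent of the deletion, so the genotype comparisons rest on the labels, and SpdefKO and WT stand throughout for libraries labelled as such. Since no label assigns libraries to individual mice, the p-values reflect only how these libraries vary, which may be technical.

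The members together made up 2631–2899 CPM in SpdefKO_GC, 2903–3152 CPM in WT_GC, 3600–4013 CPM in SpdefKO_EC and 3703–3858 CPM in WT_EC. Both GC ranges lay below both EC ranges, and SpdefKO_GC lay below WT_GC. Per kilobase of transcript, which allows levels to be compared between genes, the highest member in WT_GC was Hadh, a short-chain hydroxyacyl-CoA dehydrogenase, at 111 ± 6.26 CPM per kb (SD, n = 4). Etfb, Echs1, Acaa2 and Acads followed it, at 90.3 ± 8.30, 86.2 ± 2.93, 75.7 ± 2.90 and 70.4 ± 5.05 CPM per kb. Etfb and Echs1 overlapped within their SD, as did Acaa2 and Acads. In WT_EC the order began with Fabp2 at 165 ± 19.5, Hadh at 152 ± 12.5, Slc25a20 at 124 ± 15.5, Plin2 at 121 ± 10.3 and Acads at 106 ± 5.66 CPM per kb. Each of these overlapped the next in that order within their SD. The intestinal binding protein, the carnitine carrier and the lipid droplet protein thus stood near the top in EC but were at 38.4 ± 4.92, 22.9 ± 1.01 and 40.9 ± 4.07 CPM per kb in WT_GC.

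The first question was how goblet cells differ from the remaining epithelium, within each genotype. Most members were lower in goblet cells. In SpdefKO, 26 of the 32 tested members fell and 4 rose in GC relative to EC, while 28.4% of all 12915 tested genes fell and 28% rose, 56.4% in either direction. In WT, 19 fell and 5 rose, against 30.1% and 31% of all tested genes, 61.2% in either direction. The median log2 difference of the members was -0.57 in SpdefKO and -0.38 in WT, while that of all tested genes was 0.03 in SpdefKO and 0.05 in WT. A fit that treated GC and EC libraries with consecutive numbers as pairs gave the same counts of members, while it called 67.3% of all tested genes in SpdefKO and 71.4% in WT. In these bulk libraries fewer cells of a type and less RNA per cell cannot be told apart. RNA purification also differed with the fraction, since goblet cell lysates and the others went through different columns, so column and cell fraction cannot be told apart.

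**Figure D1:**
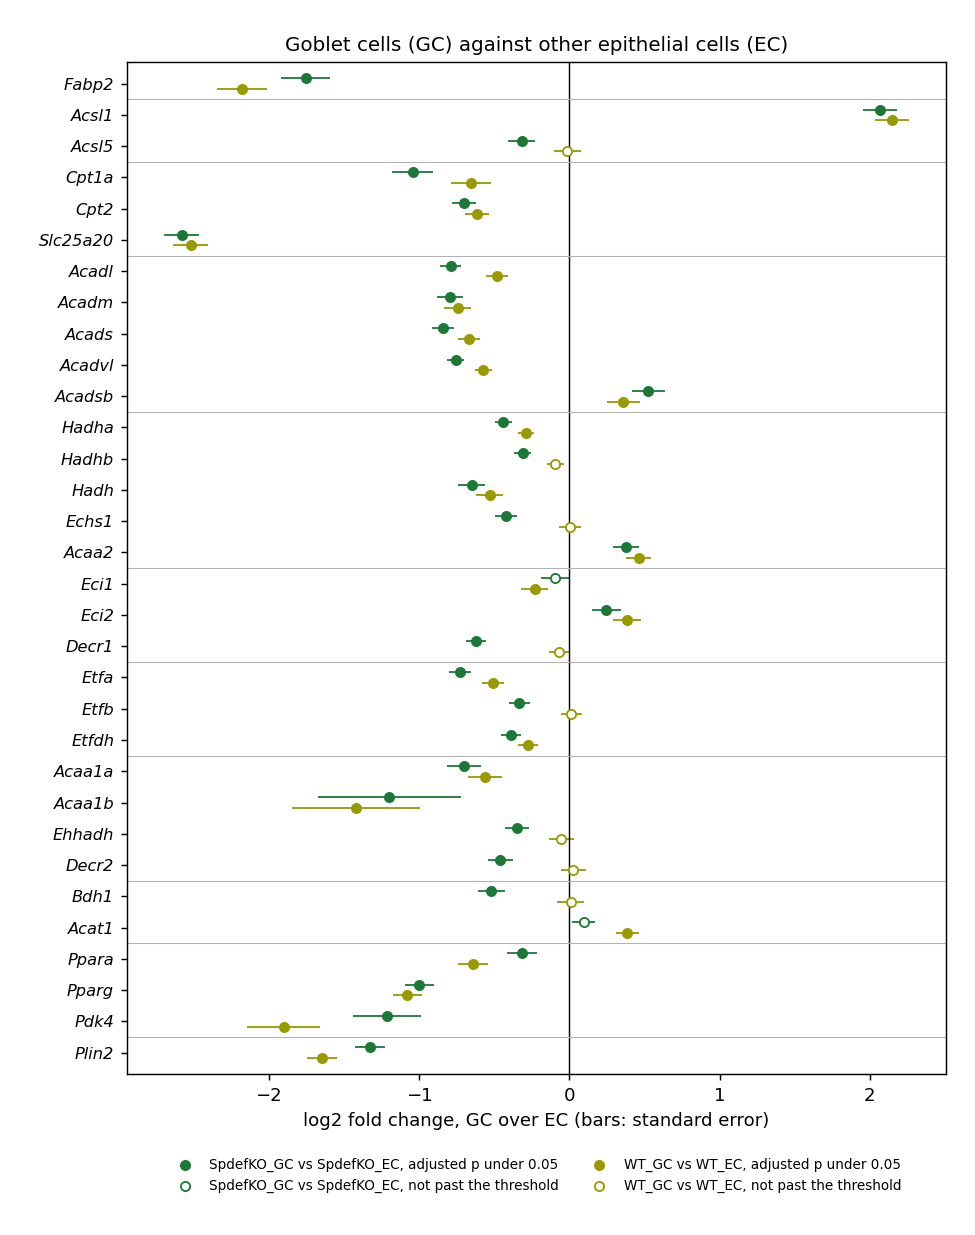
Log2 difference of each tested member between GC and EC (points, with approximate SE bars), in SpdefKO and in WT, grouped by role; filled points passed the test. Slc25a20 is lowest at -2.58 in SpdefKO and -2.52 in WT, and Acsl1 stands alone on the right at 2.07 and 2.15.

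Among the genes that bind and activate fatty acids, Fabp2 and Acsl1 moved in opposite directions. Fabp2, the intestinal fatty acid-binding protein of absorptive cells, was at 65.4, 46.8, 62.4 and 51.1 CPM in SpdefKO_GC libraries 3, 5, 7 and 19, against 217, 199.5, 165 and 114 CPM in SpdefKO_EC libraries 4, 6, 8 and 20. It was at 31.2, 35.8, 42.4 and 38.7 CPM in WT_GC libraries 9, 11, 13 and 18, against 137, 157, 183 and 158 CPM in WT_EC libraries 10, 12, 14 and 17; values of other genes follow the same order of libraries. No GC library reached the lowest EC library of its genotype. The log2 difference was -1.76 ± 0.16 in SpdefKO (adjusted p = 7.05e-08) and -2.18 ± 0.17 in WT (adjusted p = 5.14e-09), the ± giving the SE. Acsl1 (chr8:46471037-46536051 of GRCm38, plus strand), a long-chain acyl-CoA synthetase, was at 96.1, 100.9, 103 and 107 CPM in SpdefKO_GC, against 23.8, 19.02, 24.0 and 22.0 CPM in SpdefKO_EC. It was at 142, 121, 159 and 130.4 CPM in WT_GC, against 28.0, 23.1, 34.9 and 32.4 CPM in WT_EC. All GC libraries lay far above all EC libraries, by 4.20-fold in SpdefKO (adjusted p = 1.22e-11) and 4.43-fold in WT (adjusted p = 4.72e-12).

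The other synthetase, Acsl5, showed no such gap. It averaged 197 ± 17.6 CPM in SpdefKO_GC and 225 ± 15.7 CPM in SpdefKO_EC (log2 -0.32 ± 0.09, adjusted p = 0.00487), and 159 ± 12.9 CPM in WT_GC and 152 ± 21.5 CPM in WT_EC (log2 -0.01 ± 0.09, adjusted p = 0.903). The Acsl5 call in SpdefKO was lost when libraries were scaled by upper-quartile factors or by totals alone. In a ratio chosen after the values were seen, Acsl1 counts were 0.449–0.597 of those of Acsl5 in SpdefKO_GC and 0.717–0.975 in WT_GC, against 0.0879–0.112 in SpdefKO_EC and 0.171–0.236 in WT_EC. Fabp1, the liver-type binding protein, had 0 counts in SpdefKO_GC and 3 in WT_GC, against 2 in SpdefKO_EC and 3 in WT_EC, summed over the libraries of each group. Cd36, a fatty acid uptake receptor, had 5, 6, 18 and 11 counts in the same groups. Both were at or near the limit of what these depths can show, and the Fabp1 promoter above is the member window with the looser repeat.

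In the carnitine shuttle, all 3 members fell in GC, and the carrier in the inner membrane fell most. Slc25a20 (chr9:108662088-108684641 of GRCm38, plus strand), which exchanges acylcarnitine for carnitine, was at 33.0, 37.0, 29.6 and 44.7 CPM in SpdefKO_GC, against 199, 212, 191 and 189.6 CPM in SpdefKO_EC. It was at 40.0, 42.2, 38.8 and 42.6 CPM in WT_GC, against 198, 259, 202 and 227 CPM in WT_EC. It was thus 5.98-fold lower in GC in SpdefKO (adjusted p = 9.24e-13) and 5.73-fold lower in WT (adjusted p = 9.34e-13), with no overlap. Cpt1a, the rate-limiting transferase of the outer membrane, was at 161, 194, 151 and 214 CPM in SpdefKO_GC, against 313, 373, 292 and 386 CPM in SpdefKO_EC (log2 -1.04 ± 0.13, adjusted p = 2.56e-06). In WT it was at 220.2, 266, 187 and 231 CPM in GC and at 341, 364, 288 and 352 CPM in EC (log2 -0.65 ± 0.13, adjusted p = 0.000336). GC and EC libraries did not overlap in either genotype. Cpt2, the inner-membrane transferase, averaged 44.1 ± 3.29 and 65.6 ± 5.55 CPM in SpdefKO_GC and SpdefKO_EC, and 47.0 ± 3.46 and 68.1 ± 3.86 CPM in WT_GC and WT_EC. Its log2 differences were -0.70 and -0.61, less than those of Slc25a20. Within a library, Slc25a20 counts were 0.191–0.208 of those of Cpt1a in SpdefKO_GC and 0.158–0.208 in WT_GC, against 0.492–0.652 in SpdefKO_EC and 0.582–0.711 in WT_EC.

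**Figure D2:**
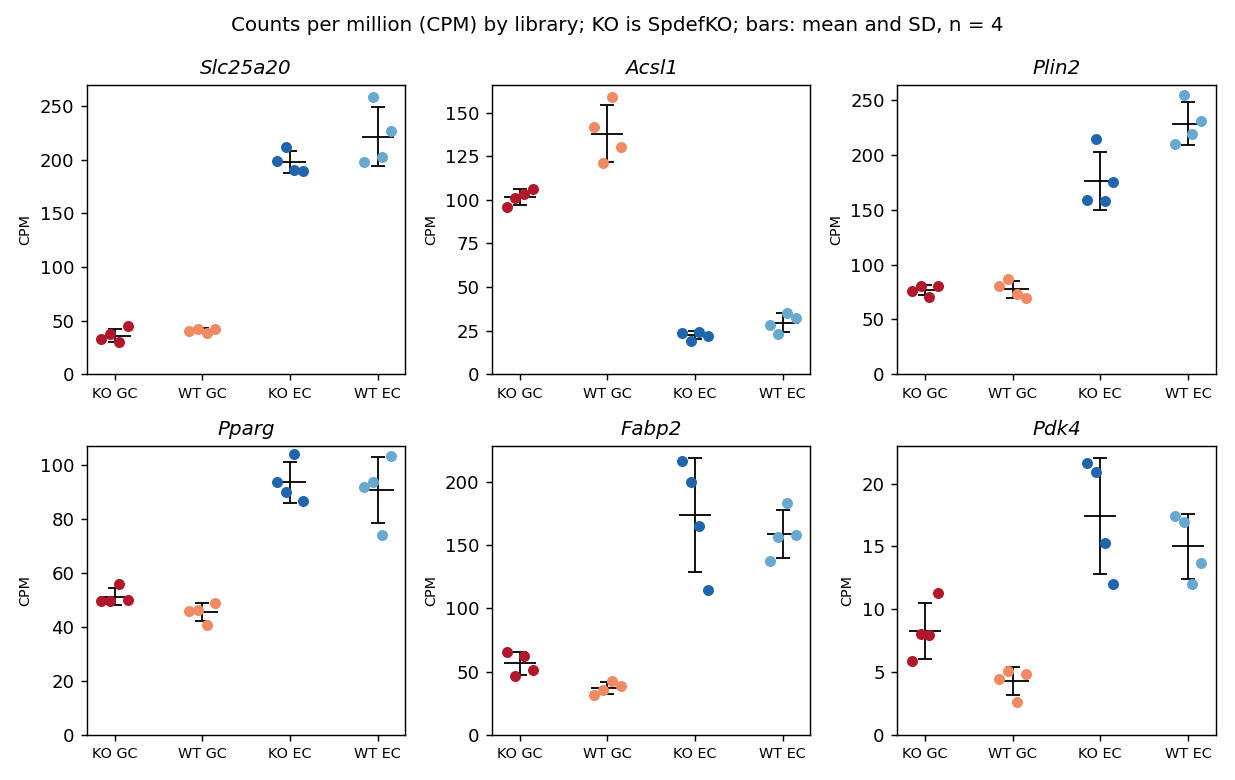
CPM per library (points, linear scale) with the group mean and SD (bars, n = 4) of Slc25a20, Acsl1, Plin2, Pparg, Fabp2 and Pdk4 in SpdefKO_GC, WT_GC, SpdefKO_EC and WT_EC. Acsl1 lies above its EC libraries in every GC library, with means of 102 and 138 CPM against 22.2 and 29.6 CPM, and the other genes lie below theirs.

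The acyl-CoA dehydrogenases, which open each round of the cycle, fell in GC for all 4 straight-chain enzymes. Acadvl, for very long chains, averaged 107 ± 5.39 CPM in SpdefKO_GC and 165 ± 3.35 CPM in SpdefKO_EC (log2 -0.76 ± 0.06), and 128 ± 8.29 CPM in WT_GC and 180.4 ± 6.20 CPM in WT_EC (log2 -0.57 ± 0.06). Acadl, for long chains, was at 94.0–111 CPM in SpdefKO_GC and 152–174 CPM in SpdefKO_EC (log2 -0.79), and at 86.2–97.5 CPM in WT_GC and 118–121 CPM in WT_EC (log2 -0.48). Acadm, for medium chains, was at 69.7–88.7 CPM in SpdefKO_GC and 110.3–143 CPM in SpdefKO_EC (log2 -0.79), and at 80.9–91.2 CPM in WT_GC and 134–141 CPM in WT_EC (log2 -0.74). None of these ranges overlapped between fractions. Acads, for short chains such as butyrate, averaged 119 ± 7.15 CPM in SpdefKO_GC and 196 ± 16.2 CPM in SpdefKO_EC (log2 -0.84 ± 0.07). In WT it averaged 132 ± 9.45 CPM in GC and 198 ± 10.6 CPM in EC (log2 -0.67 ± 0.07). Their adjusted p-values lay between 1.15e-09 and 1.01e-05. Acadsb, which acts on short branched chains from isoleucine, went the other way. It averaged 37.7 ± 2.03 CPM in SpdefKO_GC and 24.1 ± 4.54 CPM in SpdefKO_EC (log2 0.53 ± 0.11, adjusted p = 0.000481), and 38.8 ± 2.87 CPM in WT_GC and 28.7 ± 3.01 CPM in WT_EC (log2 0.36 ± 0.11, adjusted p = 0.00827). Acadvl shares 42.9% of its exonic bases with Dvl2 on the opposite strand, and its value is uncertain because no source used here says whether counting was stranded.

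The enzymes of the later steps split. Hadh fell in GC, at 173 ± 19.4 CPM in SpdefKO_GC and 249 ± 25.1 CPM in SpdefKO_EC (log2 -0.65 ± 0.09), and at 198 ± 11.2 CPM in WT_GC and 272 ± 22.4 CPM in WT_EC (log2 -0.53 ± 0.09). The thiolase Acaa2, which ends the round in mitochondria, rose, at 99.7 ± 9.58 CPM in SpdefKO_GC and 70.5 ± 5.59 CPM in SpdefKO_EC (log2 0.38 ± 0.09, adjusted p = 0.000909), and at 115 ± 4.40 CPM in WT_GC and 79.0 ± 8.89 CPM in WT_EC (log2 0.46 ± 0.08, adjusted p = 0.000111). Echs1, a short-chain enoyl-CoA hydratase, fell in SpdefKO (log2 -0.42 ± 0.07, adjusted p = 7.12e-05) and differed by 0.00 ± 0.07 in WT (adjusted p = 0.962). Hadha and Hadhb encode the alpha and beta subunits of the trifunctional protein, from the start sites 272 bases apart. Hadha averaged 271 ± 9.72 CPM in SpdefKO_GC and 336 ± 11.97 CPM in SpdefKO_EC (log2 -0.44 ± 0.05), and 266 ± 11.6 CPM in WT_GC and 307 ± 2.91 CPM in WT_EC (log2 -0.29 ± 0.05). Hadhb averaged 115 ± 4.33 CPM in SpdefKO_GC and 130.3 ± 7.47 CPM in SpdefKO_EC (log2 -0.31 ± 0.06, adjusted p = 9.04e-05), and 129 ± 3.60 CPM in WT_GC and 130.2 ± 6.13 CPM in WT_EC (log2 -0.09 ± 0.06, adjusted p = 0.157). In a ratio chosen after the values were seen, Hadhb counts were 0.419–0.428 of Hadha counts in SpdefKO_GC and 0.464–0.527 in WT_GC, against 0.358–0.410 in SpdefKO_EC and 0.400–0.447 in WT_EC.

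Electron transfer genes fell in GC or did not pass the test. Etfa, the alpha subunit of the electron transfer flavoprotein, averaged 68.7 ± 6.06 CPM in SpdefKO_GC and 104 ± 8.10 CPM in SpdefKO_EC (log2 -0.73 ± 0.07), and 71.7 ± 2.41 CPM in WT_GC and 96.6 ± 2.38 CPM in WT_EC (log2 -0.51 ± 0.07). Etfb, its beta subunit, fell in SpdefKO (log2 -0.33 ± 0.07, adjusted p = 0.000459) and differed by 0.01 ± 0.07 in WT (adjusted p = 0.880). Etfdh, which hands the electrons to ubiquinone, was at 88.2–104 CPM in SpdefKO_GC and 105–128 CPM in SpdefKO_EC, and at 87.1–92.1 CPM in WT_GC and 101–108 CPM in WT_EC. It differed by -0.39 in SpdefKO (adjusted p = 9.22e-05) and by -0.27 in WT (adjusted p = 0.00211).

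Of the auxiliary enzymes that handle double bonds, Eci2, an isomerase, was at 33.6–43.6 CPM in SpdefKO_GC and 28.1–31.1 CPM in SpdefKO_EC, and at 40.2–48.6 CPM in WT_GC and 30.1–33.6 CPM in WT_EC. It rose in GC by 0.25 in SpdefKO (adjusted p = 0.0312) and 0.38 in WT (adjusted p = 0.00159). Its relative Eci1, at 28.2–41.9 CPM over all libraries, differed by -0.10 in SpdefKO (adjusted p = 0.391) and fell by 0.23 on the log2 scale in WT (adjusted p = 0.0352). Decr1, the mitochondrial dienoyl-CoA reductase, fell in SpdefKO (log2 -0.62 ± 0.07, adjusted p = 2.52e-07) and differed by -0.07 ± 0.07 in WT (adjusted p = 0.392). In peroxisomes, the reductase Decr2 fell by 0.46 on the log2 scale in SpdefKO (adjusted p = 9.47e-05) and differed by 0.03 in WT (adjusted p = 0.786). The peroxisomal bifunctional enzyme Ehhadh likewise fell in SpdefKO (log2 -0.35, adjusted p = 0.00129) and differed by -0.05 in WT (adjusted p = 0.593). The peroxisomal thiolase Acaa1a, at 45.6–56.8 CPM in SpdefKO_GC and 62.7–95.8 CPM in SpdefKO_EC, and at 51.2–64.0 CPM in WT_GC and 75.0–86.2 CPM in WT_EC, fell in both (log2 -0.70 in SpdefKO, adjusted p = 3.74e-05; log2 -0.56 in WT, adjusted p = 0.000333). Its near-identical copy Acaa1b had 20 and 43 counts in SpdefKO_GC and SpdefKO_EC, and 25 and 62 in WT_GC and WT_EC; the pair can share reads, so both are uncertain. The calls of Eci1 in WT and of Eci2 and Acaa1b in SpdefKO were each lost under some of the alternatives tried.

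Ketone body genes did not fall with the shuttle in WT. Acat1, the mitochondrial acetoacetyl-CoA thiolase, averaged 204 ± 11.6 CPM in SpdefKO_GC and 175 ± 6.96 CPM in SpdefKO_EC (log2 0.10 ± 0.08, adjusted p = 0.302), and 218 ± 14.3 CPM in WT_GC and 158 ± 22.3 CPM in WT_EC (log2 0.39 ± 0.08, adjusted p = 0.000225). Bdh1, which interconverts acetoacetate and beta-hydroxybutyrate, fell in SpdefKO (log2 -0.52 ± 0.09, adjusted p = 7.05e-05) and differed by 0.01 ± 0.09 in WT (adjusted p = 0.936).

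The regulators and the lipid droplet gene all fell in GC. Pparg, a nuclear receptor of absorptive colonocytes, was at 49.7, 49.6, 55.9 and 49.96 CPM in SpdefKO_GC, against 93.9, 90.2, 104 and 86.7 CPM in SpdefKO_EC (log2 -0.997 ± 0.10, adjusted p = 4.78e-08). It was at 46.1, 46.3, 40.9 and 48.9 CPM in WT_GC, against 92.0, 93.9, 74.0 and 103 CPM in WT_EC (log2 -1.08 ± 0.10, adjusted p = 1.51e-08). No GC library overlapped EC. Ppara, the receptor best known for switching on oxidation genes in liver, averaged 15.5 ± 1.29 CPM in SpdefKO_GC and 17.7 ± 2.11 CPM in SpdefKO_EC (log2 -0.31 ± 0.10, adjusted p = 0.0107), and 16.3 ± 0.989 CPM in WT_GC and 24.0 ± 1.86 CPM in WT_EC (log2 -0.64 ± 0.10, adjusted p = 1.24e-05). The Ppara call in SpdefKO was lost with upper-quartile factors and with totals alone.

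Pdk4, a kinase that inactivates pyruvate dehydrogenase, was at 5.90, 7.99, 7.97 and 11.3 CPM in SpdefKO_GC, against 21.6, 20.9, 15.3 and 11.997 CPM in SpdefKO_EC (log2 -1.21 ± 0.22, adjusted p = 0.000166). In WT it was at 4.48, 5.08, 2.65 and 4.83 CPM in GC, against 17.4, 16.96, 12.01 and 13.7 CPM in EC (log2 -1.90 ± 0.24, adjusted p = 2.25e-06). GC stayed below EC in both, narrowly in SpdefKO. Plin2 (chr4:86648386-86670060 of GRCm38, minus strand), which coats lipid droplets, was at 75.9, 80.0, 70.1 and 80.7 CPM in SpdefKO_GC, against 159, 215, 158 and 175 CPM in SpdefKO_EC (log2 -1.33 ± 0.10, adjusted p = 1.36e-09). In WT it was at 80.1, 86.5, 73.1 and 69.2 CPM in GC, against 209.9, 255, 219 and 231 CPM in EC (log2 -1.64 ± 0.10, adjusted p = 5.39e-11). All GC libraries lay below all EC libraries. Of 5 adipocyte markers, Adipoq, Lep, Plin1 and Fabp4 were at 0 in both EC groups, and the list summed to 0.596–1.03 CPM in SpdefKO_GC, 0.0679–0.584 CPM in WT_GC, 3.58–10.0 CPM in SpdefKO_EC and 4.98–6.27 CPM in WT_EC, all of it from Cidec in EC.

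The second question was what differed between goblet cells of the genotypes. In SpdefKO_GC relative to WT_GC, 9 of the 32 tested members fell and 3 rose, against 11% and 10.4% of all tested genes (21.4% either way). The median log2 difference was -0.16 for the members and 0.00 for all tested genes. The members that fell were Bdh1, Decr2, Decr1, Acsl1, Ehhadh, Echs1, Acadvl, Etfb and Hadhb, and those that rose were Pdk4, Fabp2 and Acsl5. This comparison and that of goblet cells with EC in each genotype share libraries, so they are not independent.

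**Figure D3:**
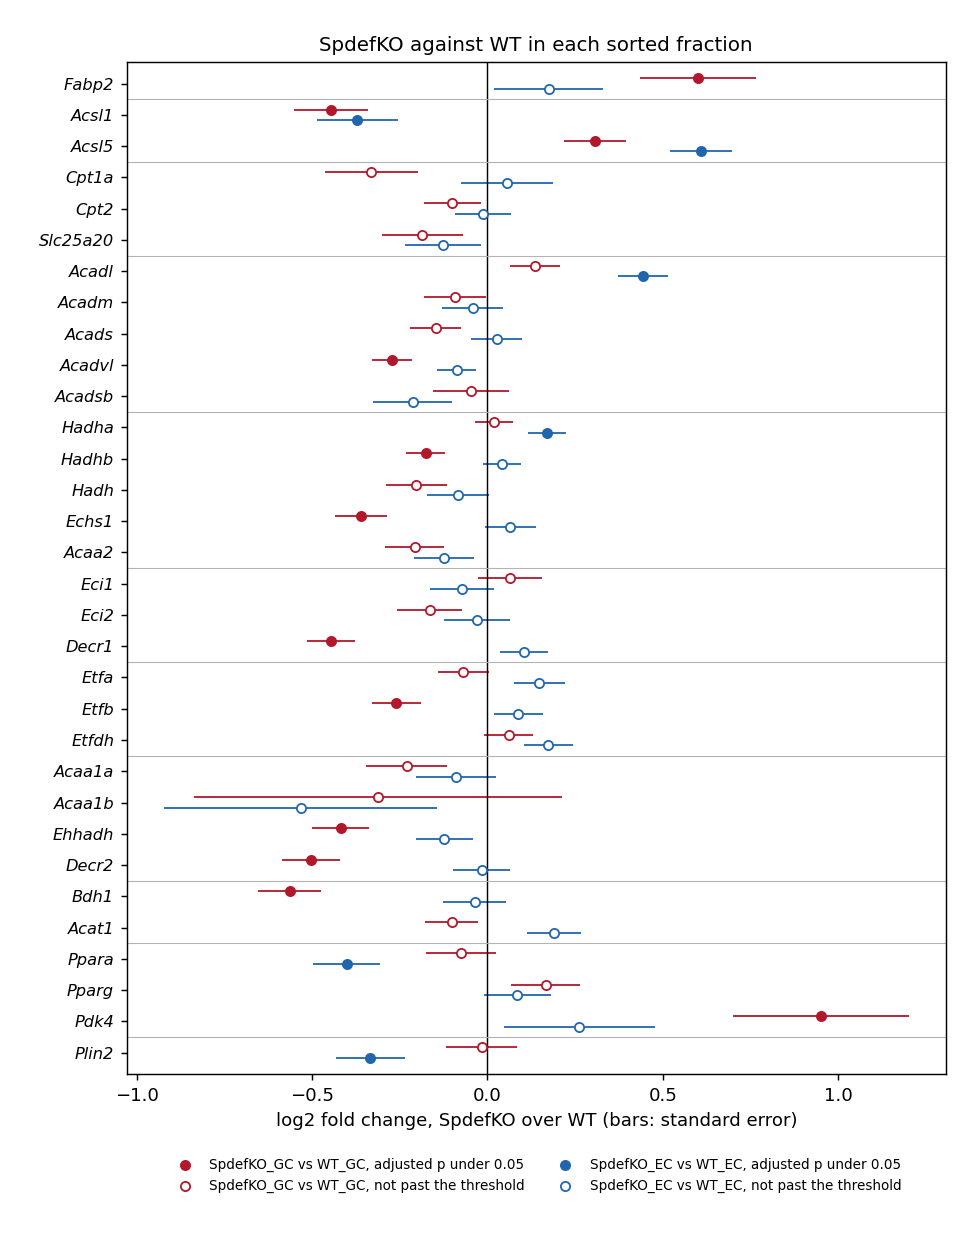
Log2 difference of each tested member between SpdefKO and WT (points, with approximate SE bars), in GC and in EC, grouped by role; filled points passed the test. In GC the called points run over -0.56 for Bdh1 to 0.95 for Pdk4, and in EC over -0.40 for Ppara to 0.61 for Acsl5.

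The ketone body enzyme Bdh1 had the lowest log2 difference of the members. The gene lies at chr16:31422280-31458901 of GRCm38, on the plus strand. It was at 99.5, 81.5, 99.9 and 87.5 CPM in SpdefKO_GC, against 133, 134, 149 and 126 CPM in WT_GC (log2 -0.56 ± 0.09, adjusted p = 0.000225). The groups did not overlap. Both dienoyl-CoA reductases, which remove a double bond from unsaturated fatty acids, fell by similar amounts. Decr1 (chr4:15917240-15945507, minus strand), in mitochondria, was at 58.9, 53.8, 60.0 and 65.8 CPM in SpdefKO_GC, against 78.4, 83.9, 83.3 and 78.2 CPM in WT_GC (log2 -0.45 ± 0.07, adjusted p = 0.000141). Decr2 (chr17:26081208-26090337, minus strand), in peroxisomes, was at 35.9, 38.5, 30.9 and 35.7 CPM in SpdefKO_GC, against 46.8, 51.3, 53.5 and 47.5 CPM in WT_GC (log2 -0.50 ± 0.08, adjusted p = 0.000259). Every SpdefKO_GC library lay below every WT_GC library for both.

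The hydratase Echs1 was at 109, 109, 98.0 and 104 CPM in SpdefKO_GC, against 129, 139, 132 and 137 CPM in WT_GC (log2 -0.36 ± 0.07, adjusted p = 0.00186). Ehhadh, the peroxisomal hydratase and dehydrogenase, was at 37.6, 35.4, 32.0 and 39.5 CPM in SpdefKO_GC, against 46.8, 49.0, 51.1 and 45.6 CPM in WT_GC (log2 -0.42 ± 0.08, adjusted p = 0.00131). Neither overlapped between the groups. The synthetase Acsl1 was lower by 0.45 on the log2 scale in SpdefKO_GC (adjusted p = 0.00535) and Acadvl by 0.27 (adjusted p = 0.00218), from the values given above and also without overlap. Etfb was at 75.1, 62.0, 66.3 and 67.1 CPM in SpdefKO_GC, against 71.6, 82.7, 89.3 and 78.9 CPM in WT_GC, and these groups overlapped (log2 -0.26 ± 0.07, adjusted p = 0.0127). Hadhb was at 119, 109, 114 and 117 CPM in SpdefKO_GC, against 131, 129, 132 and 124 CPM in WT_GC (log2 -0.18 ± 0.06, adjusted p = 0.0298), while its partner Hadha differed by 0.02 ± 0.05 (adjusted p = 0.834). The Hadhb call was lost in 11 of 23 alternatives. That of Etfb was lost in 3 of them, each without 1 library, SpdefKO_GC 5, WT_GC 11 or WT_GC 13, with adjusted p up to 0.0553.

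Of the members that rose in SpdefKO_GC, Pdk4 was at 5.90–11.3 CPM in SpdefKO_GC and 2.65–5.08 CPM in WT_GC, without overlap (log2 0.95 ± 0.25, adjusted p = 0.0118). Fabp2 was at 46.8–65.4 CPM in SpdefKO_GC and 31.2–42.4 CPM in WT_GC (log2 0.60 ± 0.16, adjusted p = 0.0157). The absorptive colonocyte marker sum moved the same way, at 1082–1316 CPM in SpdefKO_GC and 657–793 CPM in WT_GC, with 7 of its 11 tested markers higher and none lower, and its part in these results was not tested. Acsl5 was at 214, 197, 173 and 206 CPM in SpdefKO_GC, against 145, 169, 171 and 151 CPM in WT_GC (log2 0.31 ± 0.09, adjusted p = 0.0188). Its ranges nearly touched, at 173 against 171 CPM. Without library WT_GC 9, Fabp2 and Acsl5 did not pass (adjusted p = 0.0505 and 0.0613), which left 1 member higher. Enteroendocrine markers also differed, with a sum of 228–333 CPM in SpdefKO_GC and 91.1–132 CPM in WT_GC, and 10 of 10 higher. Proliferation markers summed to 1105–1884 and 743–1090 CPM. Of these, 1 of 5 passed as higher (20% called, against 21.4% of all tested genes). Of 13 goblet cell markers 4 were higher and 3 lower. Immune markers, at sums of 6.99–8.84 and 3.91–4.65 CPM, had 3 of 5 tested higher and 0 lower. The part of all these markers in the results on members was not tested.

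The carnitine shuttle, the receptors and the lipid droplet gene did not pass in GC. Cpt1a differed by -0.33 ± 0.13 (adjusted p = 0.0837), Slc25a20 by -0.19 ± 0.12 (adjusted p = 0.275) and Cpt2 by -0.10 ± 0.08 (adjusted p = 0.411). Cpt1a passed as lower without SpdefKO_GC 19 and without WT_GC 13. Plin2 differed by -0.02 ± 0.10 (adjusted p = 0.929), Pparg by 0.17 ± 0.10 (adjusted p = 0.248) and Ppara by -0.08 ± 0.10 (adjusted p = 0.633). The other dehydrogenases, Acadl, Acadm, Acads and Acadsb, ran over -0.15 to 0.13 on the log2 scale. A p above the threshold does not show that these levels were alike.

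In the remaining epithelium, 3 of the 32 members rose and 3 fell in SpdefKO_EC relative to WT_EC, against 6.09% and 6.54% of all tested genes (12.6% either way). The median log2 difference was -0.02 for the members and 0.01 for all tested genes. Acsl5 rose, at 248, 216, 213 and 224 CPM in SpdefKO_EC, against 155, 135, 182 and 137 CPM in WT_EC (log2 0.61 ± 0.09, adjusted p = 0.000239). Acadl, the long-chain dehydrogenase, rose as well, at 156, 153, 152 and 174 CPM in SpdefKO_EC, against 118, 121, 121 and 121 CPM in WT_EC (log2 0.44 ± 0.07, adjusted p = 0.000573). Ppara fell, at 16.1, 20.4, 15.9 and 18.3 CPM in SpdefKO_EC, against 25.1, 23.3, 21.7 and 25.8 CPM in WT_EC (log2 -0.40 ± 0.10, adjusted p = 0.0109). None of these 3 overlapped between the groups, and all held in the 23 alternatives. Hadha (log2 0.17 ± 0.05, adjusted p = 0.0445), Acsl1 (log2 -0.37 ± 0.11, adjusted p = 0.0400) and Plin2 (log2 -0.33 ± 0.10, adjusted p = 0.0319) passed narrowly and were lost in 19, 9 and 6 of the 23. Plin2 was at 159, 215, 158 and 175 CPM in SpdefKO_EC, against 209.9, 255, 219 and 231 CPM in WT_EC, with library SpdefKO_EC 6 inside the WT_EC range. Markers of other cell types differed between these groups as well. Enteroendocrine markers summed to 238–396 CPM in SpdefKO_EC and 546–755 CPM in WT_EC, with 6 of 10 lower, and tuft cell markers to 8.43–14.2 CPM in SpdefKO_EC and 33.7–71.7 CPM in WT_EC, with 4 of 7 lower. Of 11 tested absorptive colonocyte markers 4 were higher and 3 lower, and of 13 goblet cell markers 1 was higher and 4 lower. Of 5 proliferation markers 1 was higher, and their sum was 782–1351 CPM in SpdefKO_EC and 597–943 CPM in WT_EC. The part of all these markers in the results on members was not tested.

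**Figure D4:**
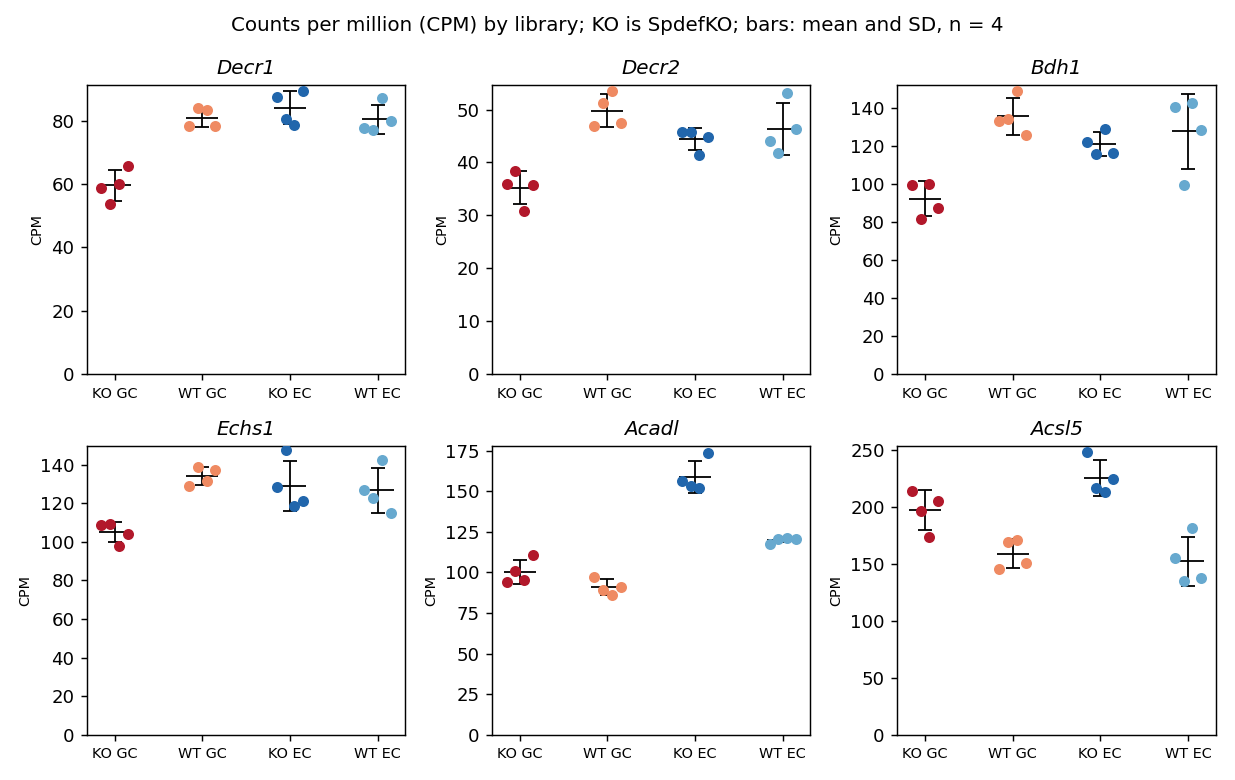
CPM per library (points) with the group mean and SD (bars, n = 4) of Decr1, Decr2, Bdh1, Echs1, Acadl and Acsl5 in SpdefKO_GC, WT_GC, SpdefKO_EC and WT_EC. Decr1, Decr2, Bdh1 and Echs1 are lowest in SpdefKO_GC, with means of 59.6, 35.2, 92.1 and 105 CPM against 81.0, 49.8, 135 and 134 CPM in WT_GC, while Acsl5 is higher in SpdefKO in both fractions.

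Whether the genotype difference itself depended on the fraction was tested by the interaction, the difference in GC minus that in EC, which is equally the fraction difference in SpdefKO minus that in WT. It was lower for 5 members and higher for 0 by edgeR's quasi-likelihood test, against 4.65% and 4.88% of all tested genes (9.53% either way); 2 members were higher at an unadjusted p under 0.05, and DESeq2 and limma-voom called 0 higher. When GC and EC libraries with consecutive numbers were treated as pairs from 1 source, in a fit with the pairs as blocks chosen after the data were seen, 12 were lower and 1 higher, against 13% and 12.8% of all tested genes (25.8% either way). The labels do not say that such libraries share a mouse. The 5 stayed lower in that fit, and the members added were Cpt1a (-0.39, adjusted p = 0.000540), Acadl (-0.31, adjusted p = 0.00568), Acsl5, Acat1, Ehhadh, Hadhb and Etfa as lower and Plin2 (0.32, adjusted p = 0.00942) as higher. The median was -0.14 for the members and -0.02 for all tested genes. Decr1 had the lowest interaction at -0.55 ± 0.10 (adjusted p = 0.00132), with 59.6 ± 4.91 and 81.0 ± 3.06 CPM in SpdefKO_GC and WT_GC but 84.1 ± 5.25 and 80.5 ± 4.58 CPM in SpdefKO_EC and WT_EC. Bdh1 followed at -0.53 ± 0.13 (adjusted p = 0.0134), with 121 ± 6.29 and 128 ± 19.8 CPM in SpdefKO_EC and WT_EC. Decr2 had -0.49 ± 0.12 (adjusted p = 0.0123) and Echs1 -0.43 ± 0.10 (adjusted p = 0.0141), with EC means of 44.5 and 46.3 CPM and of 129 and 127 CPM in SpdefKO and WT. For these 4 genes the libraries of SpdefKO_GC lay below those of the other groups, save that Bdh1 in WT_EC 12 was at 99.4 CPM. Etfb, at -0.35 ± 0.10 (adjusted p = 0.0326), lost its call in 15 of 23 alternatives, though not with the blocks (adjusted p = 0.00340). Acsl1 fell in both fractions, and its interaction was -0.08 ± 0.16 (adjusted p = 0.820). The interaction of Acsl5, higher in SpdefKO in both fractions, was -0.30 ± 0.12 (adjusted p = 0.140) and passed with the pairs as blocks (-0.31, adjusted p = 0.0122).

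Of 40 further genes of oxidation and ketone bodies, 38 were tested. In SpdefKO_GC relative to WT_GC, 13 fell and 1 rose (36.8% called, against 21.4% of all tested genes). The fatty acid transport protein Slc27a1 was at 21.2, 29.2, 20.9 and 18.5 CPM in SpdefKO_GC, against 45.1, 51.5, 48.9 and 48.5 CPM in WT_GC (log2 -1.12 ± 0.12, adjusted p = 2.21e-06). Acacb, the mitochondrial acetyl-CoA carboxylase whose product inhibits Cpt1, was at 6.38, 6.58, 5.44 and 6.03 CPM in SpdefKO_GC, against 11.4, 15.8, 11.8 and 13.1 CPM in WT_GC (log2 -1.10 ± 0.14, adjusted p = 1.32e-05). Acad10, an acyl-CoA dehydrogenase, averaged 11.8 ± 0.953 and 19.2 ± 1.43 CPM (log2 -0.71 ± 0.09, adjusted p = 1.95e-05). Acsf2, an acyl-CoA synthetase, rose, at 59.4 ± 8.53 CPM in SpdefKO_GC and 46.5 ± 2.89 CPM in WT_GC (log2 0.35 ± 0.11, adjusted p = 0.0346); its call was lost in 5 of 23 alternatives, each without 1 library (SpdefKO_GC 5 or 19, or WT_GC 9, 13 or 18), with adjusted p up to 0.09998. The genes named from this and the following lists are among the 3 furthest in each direction of those that passed.

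In EC, 5 of the 38 fell and 2 rose in SpdefKO (18.4% called, against 12.6% of all tested genes). Slc27a1 fell here too (log2 -0.66 ± 0.13, adjusted p = 0.00224), as did Eci3, a peroxisomal isomerase (log2 -0.47 ± 0.15, adjusted p = 0.0468), whose call was lost in 14 of 23 alternatives. Acsl4, a synthetase that prefers arachidonic acid, rose (log2 0.70 ± 0.08, adjusted p = 3.31e-05), as did Scp2, the peroxisomal sterol carrier and thiolase (log2 0.23 ± 0.06, adjusted p = 0.0153), whose call was lost in 4 of 23.

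Between fractions, the genes for taking up short-chain fatty acids and ketone bodies fell in GC. Of the 38, 23 fell and 6 rose in SpdefKO_GC relative to SpdefKO_EC, and 17 fell and 8 rose in WT_GC relative to WT_EC. The share called was 76.3% in SpdefKO, against 56.4% of all tested genes, and 65.8% in WT, near the 61.2% of all. Slc16a1, the monocarboxylate transporter that carries butyrate and ketone bodies, averaged 185 ± 17.7 CPM in SpdefKO_GC and 663 ± 100.1 CPM in SpdefKO_EC (log2 -1.97 ± 0.10, adjusted p = 2.32e-12). In WT it averaged 161 ± 12.7 CPM in GC and 592 ± 30.8 CPM in EC (log2 -1.96 ± 0.10, adjusted p = 1.98e-12). Slc5a8, a sodium-coupled transporter of the same substrates, fell by 1.72 on the log2 scale in SpdefKO (adjusted p = 9.97e-10), and Acad11, a dehydrogenase of long chains, by 1.55 (adjusted p = 1.67e-12). Both Slc5a8 and Acad11 also passed as lower in GC in WT. Like Acsl1, some activating enzymes rose in GC, while others of this list fell in both genotypes. Slc27a1 rose by 0.69 in SpdefKO (adjusted p = 0.000106) and 1.142 in WT (adjusted p = 9.82e-08), and Acsf3 by 0.85 in SpdefKO (adjusted p = 5.96e-07) and 0.77 in WT (adjusted p = 1.83e-06). Acsl4 rose by 1.06 in WT (adjusted p = 1.43e-09), and Slc27a2 by 0.69 in SpdefKO (adjusted p = 0.00224). Acsl4 also passed as higher in GC in SpdefKO, while Slc27a2 did not pass in WT.

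Of 35 PPAR and lipid droplet genes, 29 were tested; 15 fell and 3 rose in SpdefKO_GC relative to SpdefKO_EC, and 17 fell and 2 rose in WT_GC relative to WT_EC. The share called, 62.1% in SpdefKO and 65.5% in WT, was near the 56.4% and 61.2% of all tested genes. Creb3l3, a membrane-bound transcription factor of lipid metabolism, averaged 0.487 ± 0.0633 CPM in SpdefKO_GC and 11.1 ± 1.69 CPM in SpdefKO_EC (log2 -4.61 ± 0.21), and 0.133 ± 0.0992 CPM in WT_GC and 6.49 ± 0.637 CPM in WT_EC (log2 -5.72 ± 0.28). Mgll, a monoglyceride lipase, differed by -4.52 and -5.04, and Cidec, a lipid droplet protein, by -3.92 and -4.53, in SpdefKO and in WT. Hilpda, a droplet protein that inhibits lipolysis, went the other way to Plin2. It was at 14.05, 14.6, 13.8 and 11.98 CPM in SpdefKO_GC, 25.3, 29.7, 21.1 and 28.8 CPM in WT_GC, 4.42, 5.21, 4.29 and 4.56 CPM in SpdefKO_EC and 3.35, 3.32, 4.73 and 4.44 CPM in WT_EC. Its log2 difference between GC and EC was 1.43 ± 0.14 in SpdefKO and 2.65 ± 0.14 in WT, and between SpdefKO_GC and WT_GC it was -0.95 ± 0.12 (adjusted p = 1.79e-05). Scd1, a fatty acid desaturase, rose in SpdefKO in both fractions, by 0.73 in GC (adjusted p = 0.00786) and 1.39 in EC (adjusted p = 0.000139). In GC, 5 genes of this list rose in SpdefKO and 1 fell (20.7% called, against 21.4% of all tested genes); Ppard, the third PPAR, rose by 0.54 (adjusted p = 0.0124) and Ucp2, a mitochondrial carrier, by 0.32 (adjusted p = 0.00370).

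The 21 genes listed for the mitochondrial tricarboxylic acid cycle, which burns the acetyl-CoA, included subunits of pyruvate dehydrogenase and were mixed. In GC relative to EC, 8 fell and 2 rose in SpdefKO, and 3 fell and 5 rose in WT, the 5 including a pyruvate dehydrogenase subunit. The share called, 47.6% in SpdefKO and 38.1% in WT, was below the 56.4% and 61.2% of all tested genes. Cs, citrate synthase, averaged 472 ± 27.0 CPM in SpdefKO_GC and 994 ± 22.8 CPM in SpdefKO_EC (log2 -1.20 ± 0.06, adjusted p = 1.77e-12), and 415 ± 14.4 CPM in WT_GC and 943 ± 23.9 CPM in WT_EC (log2 -1.26 ± 0.06, adjusted p = 7.10e-13). The succinate dehydrogenase subunits Sdhb and Sdha fell too, with log2 differences of -0.58 and -0.33 in SpdefKO and of -0.41 and -0.17 in WT, though the call of Sdha in WT was lost in 6 of 24 alternatives. Idh2, the mitochondrial isocitrate dehydrogenase, rose by 0.89 in both genotypes, and Suclg2, a subunit of succinyl-CoA ligase, by 0.23 in SpdefKO and 0.63 in WT. Between SpdefKO_GC and WT_GC, Cs rose (log2 0.18 ± 0.06, adjusted p = 0.0307) and Suclg2 fell (log2 -0.25 ± 0.06, adjusted p = 0.00442). The Cs call was lost in 5 of 23 alternatives, with adjusted p up to 0.105. Sdhd, a further succinate dehydrogenase subunit, rose in SpdefKO_EC relative to WT_EC, by 0.25 on the log2 scale (adjusted p = 0.0488), a call lost in 18 of 23 alternatives.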

How the data were processed

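Per the labels' protocols, cells from the distal colon were sorted by mCherry against a C57Bl6 mouse, RNA came off MinElute columns for goblet cells but Mini columns for EC, and libraries came from a TruSeq stranded kit after ribosomal RNA removal (Ribo-Zero Gold). The deposited values were whole-number counts per gene symbol and library. Tools listed in the submitters' processing notes, in no stated role or order, are STAR 2.4.0f, HTSeq 0.6.1p1, FastQC 0.11.2 and DESeq2 1.14, with the build mm10. The sources used here do not give the annotation or the strand setting of the counting. A table of normalized values was used only for its symbols, since in the counts 27 symbols read as dates.

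Entries without a gene name (3, with 47.1–54.7% of the total) entered neither library sizes nor tests. Libraries of a group differed by more than counting noise (a chi-square of 4.53–34.5 for each degree of freedom). edgeR's quasi-likelihood test (edgeR 4.0.16, limma 3.58.1, R 4.3.3) with TMM factors (0.944–1.06), the default filter on low counts and robust dispersion was fitted to all 16 libraries in 1 model with a coefficient per group. It kept 12915 genes, with a biological coefficient of variation of 11.7%. All log2 differences, SE and Benjamini-Hochberg adjusted p-values come from this fit, adjusted over all genes tested, with a threshold of 0.05; the SE, the log2 difference over the root of its F statistic, is approximate. The test was checked on simulated counts. CPM are shares of the gene counts per mega-count, without TMM factors; levels per kb use the principal GENCODE transcript on GRCm38, the assembly also called mm10. The labels do not tie GC to EC libraries, but their numbers run in consecutive pairs within each genotype. In all 8 such pairs the deviations of the libraries from their group means correlated across genes (r = 0.121–0.583, against -0.369 to 0.219 for other GC and EC libraries of a genotype), so a fit with the pairs as blocks was added after the data were seen. Means are given ± SD with n = 4. Counts cover counting error only.

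The members and lists were chosen with earlier results of these data known. Ratios of members were chosen after seeing values. The rule named every member, and of the other lists the 3 genes furthest in each direction with a mean of at least 5 CPM in the higher group. Some genes that this rule names are not reported here. The symbol Clca1 was left out of the goblet cell markers, because the annotation behind the counts uses it for another gene; Clca3 there stands for the mucus gene. Of 8 tuft cell markers, 7 were in the counts. Members that overlap another gene on the opposite strand are Acadvl, Echs1, Acaa1a, Acaa1b, Etfdh and Acsl5. Alternatives were upper-quartile factors, DESeq2 size factors, library totals alone, no filter, the DESeq2 1.42.0 Wald test, limma-voom, only the groups compared, each library left out, and the pairs as blocks.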

Additional observations from a re-analysis of the deposited data

Results flagged for a closer look

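The difference between SpdefKO and WT depended on the fraction (GC less EC) for 5 members by edgeR's quasi-likelihood test. It was -0.55 for Decr1, -0.53 for Bdh1, -0.49 for Decr2, -0.43 for Echs1 and -0.35 for Etfb, on the log2 scale. Over the whole of the other lists, the interaction passed for 28.9% of the tested further genes of oxidation and ketone bodies. It passed for 6.9% of the tested PPAR and lipid droplet genes and 9.52% of the tricarboxylic acid cycle list, against 9.53% of all tested genes. Among the named genes of those lists, picked for passing in the group comparisons that make up the interaction, it passed for 10. It was lower for Hilpda (-1.22), Acacb (-0.74), Acsl4 (-0.55), Acad11 (-0.52), Scp2 (-0.51), Acad10 (-0.43) and Suclg2 (-0.40), and higher for Slc27a2 (0.88), Ppard (0.65) and Acsf2 (0.56).

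Of 136 member-by-group sets of 4 libraries, 4 held a library far from the rest by Dixon's criterion, which chance meets in about 1 of 20 sets. Acadl was at 117.8 CPM in WT_EC library 10 and at 120.6–121.1 CPM in the others of its group. Etfdh was at 87.1 CPM in WT_GC library 18, against 91.5–92.1 CPM. Pparg was at 55.9 CPM in SpdefKO_GC library 7, against 49.6–49.96 CPM. Fabp1 was at 0.175 CPM in WT_GC library 11 and at 0 in the others.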

How the results depend on the processing

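Over 3741 settings of single members, 3633 stayed on their side of the threshold, 89 lost the call and 19 gained one. No called difference changed sign, while 87 differences that passed in neither fit did. Members called under every alternative numbered 8 of 12 for SpdefKO_GC against WT_GC, 3 of 6 for SpdefKO_EC against WT_EC, 26 of 30 for SpdefKO_GC against SpdefKO_EC, 23 of 24 for WT_GC against WT_EC and 4 of 5 for the interaction. With single libraries left out, the number of members higher in SpdefKO_GC than in WT_GC ran over 1–3 (1 without WT_GC 9) and the number higher in the interaction over 0–1 (1, Plin2, without SpdefKO_EC 6). The number lower in SpdefKO_EC than in WT_EC ran over 1–3, with 1 without SpdefKO_EC 4, SpdefKO_EC 20 or WT_EC 17, and 1 with only the groups compared. The median member difference between WT_GC and WT_EC was -0.30 with upper-quartile factors, -0.30 with library totals alone, -0.32 with only the groups compared and -0.42 to -0.37 with single libraries left out (-0.42 without WT_EC 10 or WT_EC 14). Between SpdefKO_GC and SpdefKO_EC it was -0.46 with upper-quartile factors and -0.44 with library totals alone, settings that moved the median of all genes by 0.11 and 0.13 and the share of calls that were higher to 60.9% and 61.9%, against 49.7%; without the filter on low counts the median of all genes moved by 0.15. The cause was not tested. Depth limits Fabp1, Cd36 and Acaa1b, whose group sums were at most 62 counts. With the pairs of consecutive library numbers as a replicate block, the interaction was lower for 12 members and higher for 1; no call of a member between GC and EC changed in either genotype.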
